A study of Sus scrofa with 2 samples.

Results

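Replication-high cells, called members here, were picked out of cultured pig adipose-derived stem cells by their messenger RNA for DNA replication. A cell entered the pool with at least 5000 UMIs (unique molecular identifiers, each standing for 1 captured RNA molecule), 0 UMIs of the mitotic genes CCNB1 and PLK1, and at most 1 UMI of TOP2A. Its score was the sum of UMIs of the replication genes MCM2, MCM4, MCM6, PCNA, TYMS, CLSPN, RRM2, CDC45, CDC6, E2F8 and EXO1 over its total UMIs. MCM5, the remaining gene of the rule, was not analysed here, so the score rests on 11 of 12 genes. The top 10% by score in each library are the members: 518 of 5175 pool cells in library 1 and 640 of 6397 in library 2, or 1158 of the 25207 barcodes in all. They are set against the rest of the pool, 4657 and 5757 cells, and against the 4406 and 5201 cells of at least 5000 UMIs that the mitotic gate took out, called gated cells.

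The study profiled stem cells grown from the chest fat of Bama miniature pigs, a small laboratory breed, with droplet-based single-cell RNA sequencing (10x Genomics, 3' chemistry version 3.1, polyadenylated RNA). Per the labels, the tissue was healthy and the cells were passaged for 3 generations within at most 14 days and then frozen. All cells form 1 untreated group of 2 libraries, with no genotype other than the breed, so each comparison is between kinds of cells inside the same libraries. Nothing in the labels tells if each library had an animal or culture of its own. P-values here measure only how far differences between groups vary between these libraries, which may be technical. That spread was pooled across genes, so the standard error (SE) of a gene can be smaller than its own 2 libraries differ.

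In S phase a cell copies its DNA once. Before it, in G1, the MCM2 to MCM7 helicase is loaded onto replication origins with the help of CDC6 and CDT1, and E2F transcription factors switch on the genes of helicase, polymerases and nucleotide supply. CDC45 and the GINS complex then activate the helicase, PCNA clamps the polymerases to DNA, and TYMS and RRM2 supply nucleotides. Many of these transcripts peak around the start of S phase and decline before mitosis, when CCNB1 and PLK1 take over.

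Depth was 211527905 UMIs over 12251 barcodes in library 1 and 246316928 UMIs over 12956 barcodes in library 2, at 500 or more for each barcode. The libraries shared 46 barcode sequences, of which 6 and 1 fell among the members. Between the libraries, the summed member counts differed by a chi-square of 17.6 per degree of freedom over 13151 genes. Members held a median of 19879.5 and 15793.5 UMIs in libraries 1 and 2, the rest of the pool 18963 and 18428, and gated cells 23488.5 and 22033. Member depth was thus above that of the rest in library 1 and below it in library 2, and both pool groups were shallower than gated cells. Members held a median of 4488 and 4227.5 genes, against 4276 and 4326 in the rest and 4947 and 4872 in gated cells.

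Markers of other cell types were scarce in members. Summed over 5 fat cell genes the level was 0.970 and 1.18 CPM (UMIs per 1000000 of the summed counts of a cell group) in members, against 0.986 and 1.19 CPM in the rest. The 6 endothelial genes summed to 11.4 and 16.5 CPM in members, almost all of it PECAM1, against 13.0 and 17.1 CPM in the rest, and KDR and TEK were at 0 in members. The 7 macrophage genes summed to 30.8 and 23.9 CPM in members, almost all of it CD14, against 32.1 and 24.4 CPM in the rest, with CD163 at 0 in members. Of 6 lymphocyte genes 4 were at 0 in members, among them CD3E and MS4A1, and no gene of these 4 lists was called in either comparison. The 7 mural cell genes summed to 27.8 and 35.9 CPM in members, against 28.5 and 41.7 CPM in the rest, with none at 0 in members. Of the 6 tested against the rest, CSPG4 rose by 0.56 and ABCC9 and KCNJ8 fell by 1.05 and 0.64 on the log2 scale. None of these 3 passed without the library as a block, none of the 6 was called against gated cells, and their part in the results was not tested. The 9 stromal genes that define cells of this origin were present, at a summed 4358 and 5466 CPM in members, against 5872 and 7567 CPM in the rest, and 2 of the 9 fell (median log2 -0.44). THY1 (CD90) was at 340 and 300.4 CPM in members, against 420.2 and 359.9 CPM in the rest.

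The score had no gap at the limit. It ranged over 5.42 to 20.96 UMIs per 10000 in members of library 1 and 5.15 to 19.2 in library 2, with medians of 7.40 and 7.17, against medians of 1.92 and 1.64 in the rest. The last member had 5.4195 and the first cell outside 5.41729 in library 1, and 5.15236 and 5.14933 in library 2. Within 10% of the last member's score lay 245 and 268 pool cells (4.73% and 4.19%), of which 90 and 104 were members. In UMIs a member carried between 3 and 70 score UMIs in library 1 and between 3 and 49 in library 2, while 8.42% and 11.2% of the rest carried 0. The members are thus a range cut from a score that rests on few UMIs, and whether they form a separate type was not tested.

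**Figure D1:**
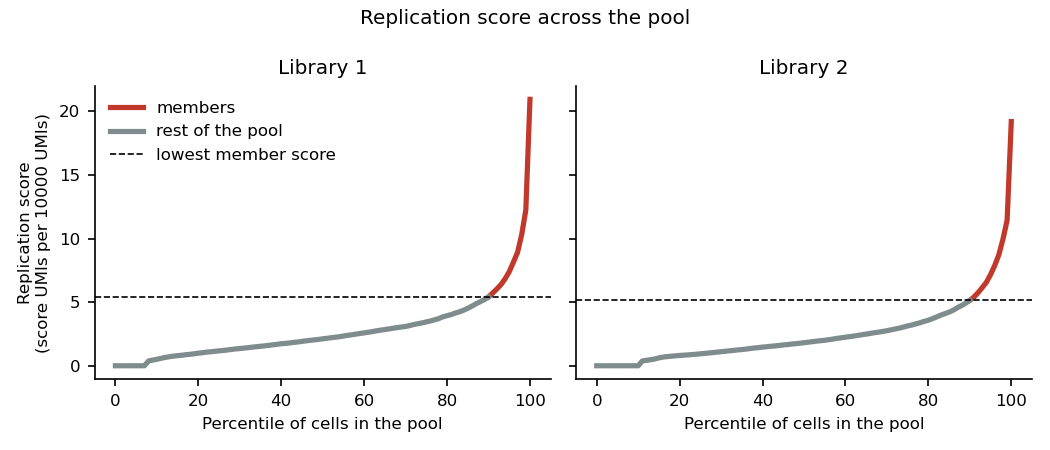
Replication score (UMIs of the 11 score genes per 10000 UMIs, vertical axis) against the percentile of cells in the pool (horizontal axis), 1 panel per library; red is members, grey the rest of the pool, and the dashed line the lowest member score. The curve passes the line, at 5.42 and 5.15, without a step and steepens over the members.

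The mitotic gate left out most cells with such a score. In gated cells the median score was 5.50 and 4.93 per 10000 UMIs, and 2245 (50.95%) and 2458 (47.3%) of them were at or above the lowest member score. Summed over 37 mitosis genes, those high-scoring gated cells reached 4843 and 4758 CPM, against 972 and 813 CPM in members. The members are thus the smaller share of cells rich in replication transcripts, the share without detected CCNB1 and PLK1 and with at most 1 UMI of TOP2A.

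The score genes chose the members, and their levels are given as a description with no test. Among licensing and helicase genes, MCM2 (chr13:72630378-72651270 in Sscrofa11.1) was at 38.1 and 35.3 CPM in members of libraries 1 and 2, against 4.70 and 4.85 CPM in the rest. MCM4 (chr4:79674737-79686964) was at 79.5 and 87.4 CPM in members, against 10.8 and 11.7 CPM in the rest, and MCM6 (chr15:15923638-15978587) at 84.6 and 113 CPM, against 23.0 and 27.6 CPM. CDC45 (chr14:51133111-51158604) was at 33.7 and 30.6 CPM in members, against 2.96 and 3.12 CPM in the rest. CDC6 (chr12:22101281-22118441), the loading factor, was at 7.57 and 7.68 CPM in members, against 0.549 and 0.445 CPM in the rest.

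Among the genes of synthesis, PCNA (chr17:14137746-14142584) was at 149 and 125 CPM in members, against 27.8 and 18.4 CPM in the rest. RRM2 (chr3:126357198-126367145), a subunit of ribonucleotide reductase, was at 139 and 122 CPM in members, against 23.2 and 10.8 CPM in the rest. TYMS (chr6:105642730-105660279), thymidylate synthase, stood apart at 234 and 201 CPM in members, against 118 and 105 CPM in the rest. CLSPN (chr6:91906325-91968070), the checkpoint adaptor claspin, was at 41.7 and 53.3 CPM in members, against 3.80 and 3.98 CPM in the rest. EXO1 (chr10:15317555-15360593), a nuclease of repair, was at 8.93 and 13.3 CPM, against 0.818 and 0.627 CPM, and E2F8 (chr2:40178182-40194932), a repressor of E2F targets, at 6.31 and 8.02 CPM, against 0.493 and 0.291 CPM.

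Leaving each gene out of the score in turn gave a look at that gene in members chosen by the other 10. The mean log2 difference between members and rest then stayed between 1.63 (MCM6) and 3.85 (E2F8) for 10 of the genes. For MCM4 it was 2.44 ± 0.07 (SD, n = 2 libraries) and for PCNA 2.22 ± 0.24. TYMS alone was lower, at 0.42 ± 0.02 when left out and 0.96 ± 0.03 when used. TYMS made up 28.4% and 25.3% of all score UMIs in members, against 54.6% and 56.3% in the rest of the pool.

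Members differed by how much of their score came from TYMS. In 80 (15.4%) and 103 (16.1%) of them TYMS gave over 50% of the score UMIs. These members had a median of 17809.5 and 11228 UMIs, against 20195 and 16814 in the other members. Across 31 S phase genes outside the score, their summed level was 623 and 667 CPM, against 1407 and 1526 CPM in the other members and 488 and 441 CPM in the rest. The helicase gene MCM7 was at 23.8 and 26.8 CPM in TYMS-led members, 74.4 and 84.4 CPM in the other members, and 12.1 and 13.3 CPM in the rest. By these values TYMS-led members lay nearer to the rest than to the other members in both libraries. The split itself set a low share of score UMIs from the other score genes. Transcripts that vary together with those genes thus differ by that choice. By 37 mitosis genes they lay nearer to the other members, at 890 and 976 CPM, against 986 and 792 CPM in the other members and 435 and 328 CPM in the rest. Depth split the members less by the 31 genes, which summed below and above the median UMIs to 1336 and 1272 CPM in library 1. In library 2 they summed to 1356 and 1460 CPM. By the 37 mitosis genes the sums were 1118 and 910 CPM in library 1 and 1016 and 723 CPM in library 2. MCM3 was at 51.8 and 29.8 CPM in library 1 and at 60.6 and 45.1 CPM in library 2. MCM7 was at 65.4 and 67.6 CPM in library 1 and at 68.1 and 82.2 CPM in library 2.

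The label of S phase was checked on those 31 S phase genes, since PCNA, TYMS, CLSPN and RRM2 had chosen the cells. Against the rest, 27 of 31 rose in members and 0 fell, with a median log2 difference of 2.01, where the median of all 18007 genes tested was -0.03. Across all genes 5.93% rose and 3.71% fell under the same rule (edgeR quasi-likelihood test on counts summed per library, Benjamini-Hochberg adjusted p under 0.05, log2 difference of at least 0.5, same sign in both libraries). These genes were measured in the cells that the score had chosen, so transcripts that vary together with the score genes differ by that choice. Without the library as a replicate block 21 of the 31 passed.

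DSCC1 and UHRF1 had the largest log2 differences of the list. FEN1, which trims Okazaki fragments, was at 29.9 and 26.6 CPM in members, against 3.99 and 3.31 CPM in the rest (log2 2.89 ± 0.10 SE). UHRF1, which brings maintenance methylation to new DNA, was at 21.1 and 30.4 CPM in members, against 2.11 and 1.80 CPM in the rest (3.66 ± 0.11). In both genes the groups were far apart in each library. DSCC1, a clamp loader subunit, was at 5.82 and 5.57 CPM in members, against 0.426 and 0.254 CPM in the rest (4.03 ± 0.24). HELLS, a chromatin remodeller, was at 30.7 and 48.5 CPM in members, against 5.76 and 6.43 CPM in the rest (2.62 ± 0.09). UNG, the uracil glycosylase that clears uracil from new DNA, was at 20.6 and 26.8 CPM in members, against 5.11 and 4.81 CPM in the rest (2.20 ± 0.10). The smallest differences of the list that passed were those of CASP8AP2 (0.87) and SLBP (0.93), the histone mRNA binding protein.

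The 4 genes of the list that did not pass were higher in members of both libraries, but by unequal amounts. DTL, an adaptor that targets licensing factors for destruction, had log2 differences of 2.04 and 3.48 in libraries 1 and 2 (adjusted p = 0.100, edgeR). ATAD2 had 1.89 and 2.77 (adjusted p = 0.0684, edgeR). BRIP1, a helicase of repair, was at 17.8 and 17.2 CPM in members, against 7.24 and 1.73 CPM in the rest (adjusted p = 0.288, edgeR). CCNE2, cyclin E2, was at 16.5 and 9.96 CPM in members, against 12.5 and 1.74 CPM in the rest (adjusted p = 0.497, edgeR), the only gene of the list whose groups overlapped between libraries. For BRIP1 and CCNE2 the rest of library 1 held the higher level of both rest groups.

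**Figure D2:**
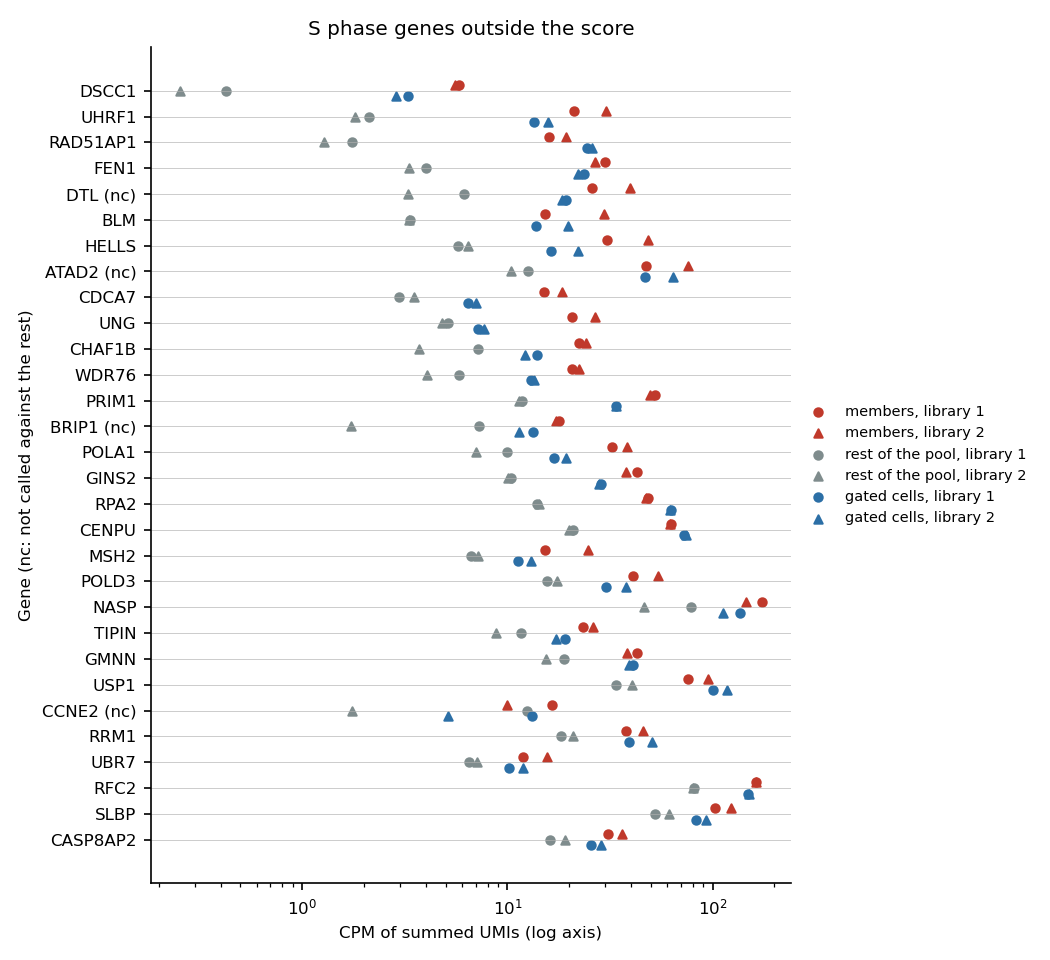
Level of 30 of the 31 S phase genes outside the score as CPM of summed UMIs (horizontal log axis), 1 row per gene ordered by log2 difference, with circles for library 1 and triangles for library 2. Members (red) lie right of the rest (grey) in every row except CCNE2, where 9.96 CPM in members of library 2 lies left of 12.5 CPM in the rest of library 1. Gated cells (blue) lie close to members in genes such as FEN1 and RRM1, and close to the rest in UNG, at 7.16 and 7.73 CPM in gated cells.

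Other gene groups of DNA replication moved the same way, but some of them share genes with the S phase list. Shared genes include DSCC1 among polymerase and fork genes, UHRF1 among chromatin genes, and RAD51AP1 and UNG among repair genes. Calls of shared genes are counted again in these groups, here and against gated cells, so the list counts are not independent. Of 24 origin licensing and helicase genes 18 rose and 0 fell (median log2 1.64). CDT1, the licensing factor, was at 34.6 and 32.0 CPM in members, against 3.96 and 3.26 CPM in the rest (3.15 ± 0.09). MCM3 was at 36.4 and 49.8 CPM in members, against 6.78 and 8.49 CPM in the rest (2.43 ± 0.08). MCM7 followed at 66.9 and 77.9 CPM, against 12.1 and 13.3 CPM (2.45 ± 0.07). GINS1 of the GINS complex rose by 2.66 on the log2 scale. Among the 6 that did not pass, ORC4, a subunit of the origin recognition complex, was at 65.4 and 67.9 CPM in members, against 72.0 and 75.3 CPM in the rest.

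Of 24 polymerase and fork genes 23 rose (median log2 1.82), with RNASEH2A, which removes RNA primers, as the exception (27.7 and 20.2 CPM in members, against 21.2 and 16.6 CPM in the rest). The polymerase subunit genes POLE2 and POLD1 rose by 3.19 and 2.73 on the log2 scale. Of 19 nucleotide supply genes 10 rose and 0 fell. TK1, thymidine kinase, was at 160.3 and 131 CPM in members, against 36.5 and 28.0 CPM in the rest (2.12 ± 0.05). The purine genes GART (0.07) and PAICS (0.38) and the serine pathway gene SHMT2 (-0.25) did not pass.

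Of 21 chromatin assembly and methylation genes 16 rose and 0 fell (median log2 1.52). CHAF1A, which places histones on new DNA, was at 23.2 and 33.1 CPM in members, against 2.76 and 3.45 CPM in the rest (3.11 ± 0.10). ATAD5, which unloads PCNA, was at 16.1 and 26.2 CPM in members, against 1.73 and 2.03 CPM in the rest (3.43 ± 0.11). The histone chaperone genes RBBP4 (0.38) and RBBP7 (0.17) did not pass. The histone gene HIST1H2BD did not pass, at 14.9 and 9.88 CPM in members, against 12.3 and 10.9 CPM in the rest. Its library groups overlapped, and it was named after its values were seen. The libraries captured polyadenylated RNA, so histone RNA that is not polyadenylated would be missed.

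Of 37 repair and checkpoint genes 33 rose and 0 fell (median log2 2.09). RAD51AP1, a factor of homologous recombination, was at 15.9 and 19.3 CPM in members, against 1.75 and 1.27 CPM in the rest (3.50 ± 0.12). BRCA2 was at 15.4 and 25.2 CPM in members, against 1.75 and 2.32 CPM in the rest (3.25 ± 0.11), and its partner gene BARD1 rose by 3.24. The genes ATR (0.45), ATRIP (0.44) and ATM (0.34), which sense damage, stayed under the limit of 0.5. Of 15 E2F and G1/S regulators 11 rose and 0 fell. E2F1 was at 26.6 and 29.2 CPM in members, against 3.25 and 3.51 CPM in the rest (2.98 ± 0.10). E2F7, a repressor like E2F8, rose by 3.39 ± 0.27 on the log2 scale.

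Cyclins and CDK inhibitors of G1 mostly did not pass. Of 21 genes 1 rose and 4 fell. CCND1, cyclin D1, was at 284 and 363 CPM in members, against 144 and 169 CPM in the rest (log2 0.98 ± 0.05). CDKN1C, the inhibitor p57, was at 29.2 and 13.9 CPM in members, against 44.9 and 27.6 CPM in the rest (-0.85 ± 0.08). The library groups of CDKN1C overlapped, and in each library members were lower. CDKN1A, the inhibitor p21, fell by 0.63 on the log2 scale, and CDK4 (0.44) and CDKN1B (-0.09) did not pass. None of the 5 calls of the list passed without the replicate block, and CDKN1A also lost its call with the rule applied to thinned counts or with the top 20%.

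Among called genes outside the score that have a gene symbol and at least 10 CPM in members or the rest, MTBP, PKMYT1 and TCF19 had the largest rises. MTBP, which binds an origin firing factor, was at 7.96 and 17.5 CPM in members, against 0.717 and 1.08 CPM in the rest (log2 3.74 ± 0.15). PKMYT1, a kinase that holds CDK1 inactive, was at 10.9 and 13.0 CPM in members, against 0.863 and 0.854 CPM in the rest (3.74 ± 0.15). TCF19, a nuclear factor first found as a growth-regulated gene, was at 38.3 and 51.0 CPM in members, against 3.05 and 3.47 CPM in the rest (3.71 ± 0.09). PSMC3IP, a recombination partner, rose by 3.37, and DIAPH3, a formin that builds actin filaments, by 3.28 on the log2 scale (adjusted p = 0.0395, edgeR). In all 1067 genes rose and 668 fell. With total UMIs alone in place of TMM scaling 1125 rose and 397 fell, so that rises made up 73.9% of calls and not 61.5%. Without the replicate block 246 rose and 36 fell.

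Genes of later phases were also above the rest, although the gate had removed cells with CCNB1 or PLK1. Of 24 late S and G2 genes 21 rose (median log2 1.47), and of 37 mitosis genes 32 rose (median log2 1.38), with 0 falls in both lists. CDK1, the kinase that drives entry into mitosis, was at 16.4 and 12.5 CPM in members, against 2.22 and 1.33 CPM in the rest (2.99 ± 0.12). SGO1, which guards the cohesion of sister chromatids, was at 8.44 and 7.85 CPM in members, against 1.08 and 1.09 CPM in the rest (2.84 ± 0.15). The lamin gene LMNB1 was at 28.7 and 34.9 CPM in members, against 9.53 and 7.54 CPM in the rest (1.85 ± 0.08). TOP2A, which the gate allowed at 1 UMI, was at 11.06 and 14.1 CPM in members, against 2.90 and 2.88 CPM in the rest, a value the gate shaped.

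Early and late transcripts were also counted cell by cell, as a description with no test. After thinning each cell at random to 5000 UMIs, 24.3% and 20.5% of members held UMIs of an early gene (CCNE1, CCNE2, CDC6 or E2F1) and of none of the late genes CCNA2, CDK1 and MKI67, against 10.2% and 4.69% of the rest and 8.49% and 6.69% of gated cells. Late genes without early ones were seen in 6.95% and 5.16% of members, against 1.70% and 1.63% of the rest and 32.2% and 34.4% of gated cells. Both kinds were seen in 3.86% and 4.84% of members, against 0.322% and 0.139% of the rest and 7.33% and 6.04% of gated cells. Neither was seen in 64.9% and 69.5% of members, against 87.8% and 93.5% of the rest and 52.0% and 52.9% of gated cells, so at this depth most members showed none of the 7 genes. CDC6 is also a score gene, so the early share is partly set by the rule. PCNA was detected after thinning in 50.4% (exact Clopper-Pearson 95% interval 46.0 to 54.8) and 43.3% (39.4 to 47.2) of members, against 12.9% and 8.09% of the rest. Without thinning the shares were 83.6% and 76.7% of members and 37.1% and 25.7% of the rest. CD3E, a T cell gene that these cells should lack, was seen in 0 of 518 and 0 of 640 members (upper limits 0.710% and 0.575%). It was seen in 0 of 4657 and 1 of 5757 cells of the rest and in 1 of 4406 and 0 of 5201 gated cells. With so little CD3E in any group, its absence from members sets no bound on free RNA. The share that free RNA gives to a cycle gene was not measured.

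A smaller set of genes fell in members. Among called genes that have a gene symbol and at least 10 CPM in members or the rest, the largest fall was that of ASPN, asporin, a matrix proteoglycan (chr3:42165553-42192902), at 10.6 and 18.1 CPM in members, against 43.8 and 62.1 CPM in the rest (log2 -1.95 ± 0.08). LCN2, lipocalin 2, which binds iron carriers of bacteria, was at 10.5 and 10.1 CPM in members, against 30.0 and 37.5 CPM in the rest (-1.78 ± 0.10). C4A, a complement component, was at 4.37 and 3.46 CPM in members, against 10.9 and 12.5 CPM in the rest (-1.66 ± 0.14). In all of them every member value lay below every value of the rest. CLEC3B, tetranectin, fell by 1.63, PLXNA4, a semaphorin receptor, by 1.52, SULT1A3, a sulfotransferase, by 1.45 and PRSS35, a serine protease homologue, by 1.44 on the log2 scale. SOX6, a transcription factor of cartilage, fell by 1.44, CFD, complement factor D, by 1.43, and CTSL, the lysosomal protease cathepsin L, by 1.33. Of these 10, LCN2, C4A, SULT1A3, PRSS35 and CFD also passed without the replicate block. C4A and SULT1A3 belong to families with close copies, among which reads could be split.

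**Figure D3:**
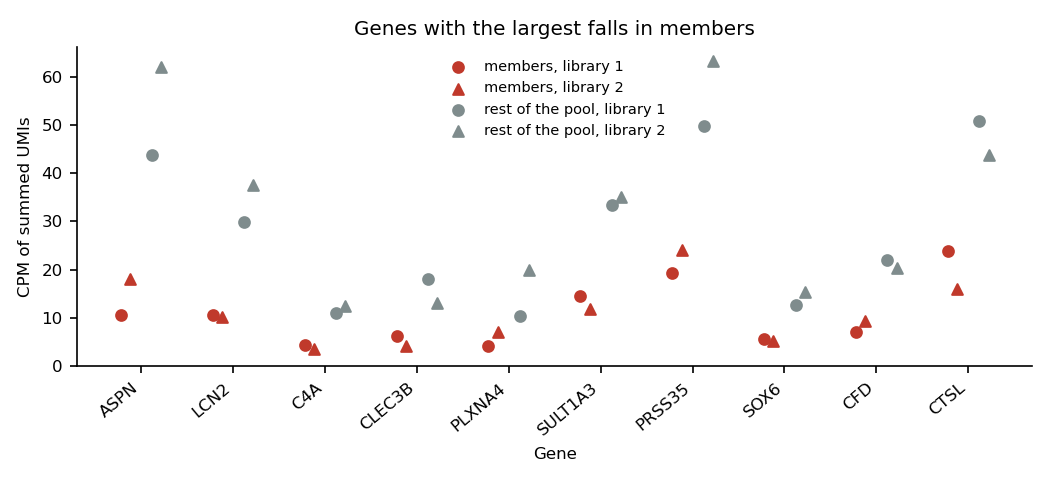
CPM of summed UMIs (vertical axis) of the 10 genes with the largest falls in members among called genes that have a gene symbol and at least 10 CPM in members or the rest, with members in red at the left and the rest of the pool in grey at the right of each gene, and circles for library 1 and triangles for library 2. ASPN stands at 10.6 and 18.1 CPM in members, against 43.8 and 62.1 CPM in the rest.

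Of 20 matrix genes 8 fell and 0 rose (median log2 -0.48). DCN, decorin, was at 565 and 553 CPM in members, against 895 and 880 CPM in the rest (-0.73 ± 0.05). COL3A1 of type III collagen was at 819 and 1195 CPM in members, against 1174 and 1819 CPM in the rest (-0.62 ± 0.04). Its libraries overlapped across groups, and within each library members were lower. OMD, osteomodulin, fell by 1.22 and LOXL2, a cross-linking enzyme, by 0.66 on the log2 scale, whereas POSTN, periostin, was level at 763 and 714 CPM in members, against 721 and 695 CPM in the rest. Without the replicate block 2 of the 8 passed.

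The list of contractile genes and TGF-beta targets held 18 genes, of which 6 fell. CYR61, a matricellular protein, was at 515 and 240 CPM in members, against 741 and 343 CPM in the rest (-0.58 ± 0.05), a call lost with the top 20% by score or with the rule on thinned counts. The smooth muscle genes ACTA2 (-0.46) and TAGLN (-0.30) stayed under the limit, and none of the 6 passed without the block. Of 21 inflammatory genes 6 fell and 0 rose. VCAM1, a leukocyte adhesion molecule, was at 22.8 and 18.8 CPM in members, against 48.5 and 47.7 CPM in the rest (-1.28 ± 0.08). CXCL14, a chemokine, fell by 0.98 on the log2 scale, while CCL2 (0.12) and IL33 (0.46) did not pass. Without the block 3 of the 6 passed.

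Of 16 interferon response genes 5 fell, led by IFI6 (-0.78) and IRF9 (-0.70), of which 1 passed without the block and IRF9 lost its call with the top 20%. Of 15 fat lineage and progenitor genes 5 fell. SFRP4, a secreted WNT antagonist, was at 21.8 and 23.9 CPM in members, against 40.6 and 39.03 CPM in the rest (-0.86 ± 0.08). PPARG, the main regulator of fat cells, was at 22.6 and 20.8 CPM in members, against 24.6 and 22.1 CPM in the rest (-0.16, not passing), and without the block 1 of the 5 passed. In the immediate early list 2 of 16 fell (JUNB by 0.52 and FOSB by 0.56), and in the growth factor list 2 of 21 fell (IGF1 by 1.88, at 0.388 and 0.506 CPM in members, and BDNF by 0.72). None of these 4 passed without the block, and JUNB and FOSB lost their calls with total UMIs alone, IGF1 and BDNF with each cell thinned to 5000 UMIs. Of 15 ribosome biogenesis genes 5 rose, among them DKC1 (0.77) and NOP56 (0.68, lost with the top 20%), and MYC did not pass (-0.48). Of 14 cholesterol synthesis genes 0 passed with edgeR or DESeq2, where a call also needs a log2 difference of at least 0.5 (median log2 -0.32). All 14 had an unadjusted edgeR p under 0.05, as had 6532 of all 18007 genes tested. Of 18 glycolysis and hypoxia genes 1 passed, ADM (-0.54, lost with total UMIs alone), and LDHA (0.20), PKM (0.12) and ENO1 (-0.02) did not. Across all 18007 genes tested 5.93% rose and 3.71% fell, and 1 fall in 18 genes is near the latter share.

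The lists were also followed across the score in 10 deciles of the pool, from lowest to highest, as a description with no test. The 31 S phase genes summed to 390.5 CPM in library 1 and 338 CPM in library 2 in the lowest decile, to 702 and 711 CPM in the ninth, and to 1291 and 1429 CPM in members. The step from the ninth decile to the members was thus the steepest. Mitosis genes climbed more evenly, with 283 and 214 CPM in the lowest decile, 691 and 609 CPM in the ninth and 972 and 813 CPM in members. UNG was at 4.31 and 3.45 CPM in the lowest decile, 7.65 and 8.40 CPM in the ninth and 20.6 and 26.8 CPM in members.

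Matrix genes went down from 11947 and 16002 CPM in the lowest decile through 9401 and 10922 CPM in the ninth to 8106 and 10006 CPM in members. The exception was a small rise in library 1, from 9705 CPM in the seventh decile to 9785 CPM in the eighth. ASPN was at 67.3 and 111 CPM in the lowest decile, 20.6 and 24.9 CPM in the ninth and 10.6 and 18.1 CPM in members. Contractile genes summed to 4966 and 4842 CPM in the lowest decile and to 3056 and 3037 CPM in the ninth, close to the 3036 and 3166 CPM of members. CCND1 was at 96.5 and 128 CPM in the lowest decile, 195 and 226 CPM in the ninth and 284 and 363 CPM in members. Cells of the lowest decile were also shallower, with a median of 12639.5 and 11314.5 UMIs, and the part of depth in these trends was not tested. Against the lower 50% of the pool by score, an alternative chosen after seeing the data, 1239 genes rose and 867 fell.

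**Figure D4:**
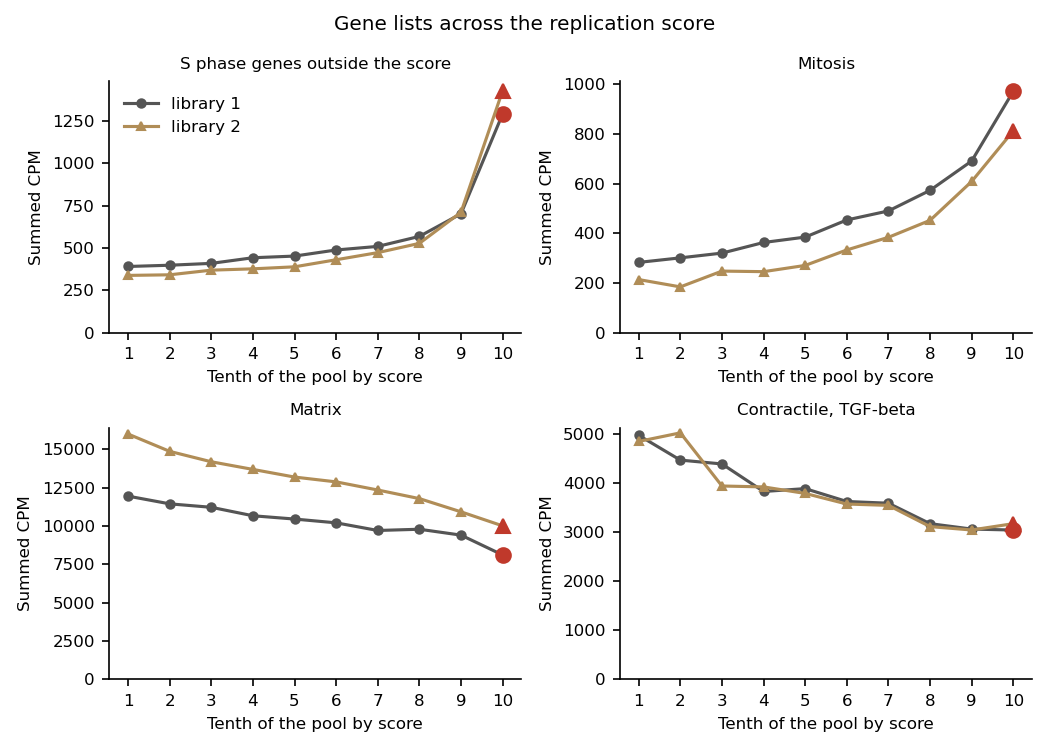
Summed CPM (vertical axis) of 4 gene lists across deciles of the pool from the lowest to the highest score (horizontal axis), with circles for library 1 and triangles for library 2; large red symbols are the members. S phase genes outside the score reach 1291 and 1429 CPM in members after 702 and 711 CPM in the ninth decile, while contractile genes are about level over the last 2 deciles.

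Members were then set against gated cells, which the gate had removed for CCNB1, PLK1 or TOP2A. Both comparisons use the same members. Of 18007 genes 407 rose in members (2.26%) and 389 fell (2.16%), and without the replicate block 1 rose and 70 fell. The gate genes themselves define the contrast, and the late and mitotic lists follow it closely. Of 37 mitosis genes 33 fell and 0 rose (median log2 -2.49), with CDCA3 at 12.03 and 7.85 CPM in members, against 132.5 and 127 CPM in gated cells. Of 24 late S and G2 genes 20 fell (median -1.30), with CCNA2, cyclin A2, at 4.95 and 5.49 CPM in members, against 46.8 and 46.9 CPM in gated cells. HMGB2, a chromatin protein, was at 219 and 173 CPM in members, against 725 and 657 CPM in gated cells (-1.86).

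Some S phase genes were above gated cells as well. Of the 31 genes outside the score 9 rose and 1 fell, RAD51AP1 (log2 -0.53). Members were chosen by a high score and gated cells were not, so transcripts that vary together with the score genes differ by that choice. Gated cells at or above the lowest member score summed to 1415 and 1545 CPM over the 31 genes, against 1291 and 1429 CPM in members. Gated cells below that score summed to 770 and 780 CPM. UNG (chr14:41746498-41757841) was at 20.6 and 26.8 CPM in members, against 7.16 and 7.73 CPM in gated cells (1.64 ± 0.10), and it was the 1 gene that rose without the block. CDCA7, a partner of HELLS, was at 15.1 and 18.5 CPM in members, against 6.46 and 7.04 CPM in gated cells (1.29 ± 0.11). HELLS rose by 1.01 and POLA1 of DNA polymerase alpha by 0.94 on the log2 scale. Both lost the call with the top 20% by score, and POLA1 also with total UMIs alone, DESeq2 size factors or a score without TYMS. FEN1 (0.28) and RRM1 (-0.13) did not pass. Among all genes, TOX, a chromatin-binding factor, was at 9.70 and 13.4 CPM in members, against 3.67 and 6.51 CPM in gated cells (1.17 ± 0.12), and DOCK10, an activator of small GTPases, at 12.9 and 20.7 CPM, against 5.43 and 9.50 CPM (1.15 ± 0.11). Apart from UNG, none of these rises passed without the block.

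Licensing genes followed the same split. CDT1 rose by 0.96, MCM3 by 0.93, MCM7 by 0.67 and WDHD1, a fork protein, by 0.55 on the log2 scale, and the other 20 of 24 did not pass. With the top 20% by score all 4 lost the call, and WDHD1 also lost it with total UMIs alone, DESeq2 size factors, thinned cells, matched depth or a score without TYMS. These differences are against all gated cells, including those that score below every member. In gated cells at or above the lowest member score, MCM7 was at 59.0 and 68.5 CPM, against 66.9 and 77.9 CPM in members. There MCM3 was at 26.3 and 35.9 CPM, against 36.4 and 49.8 CPM, and CDT1 at 24.4 and 25.9 CPM, against 34.6 and 32.0 CPM. Of the score genes, described without a test, MCM2 was at 38.1 and 35.3 CPM in members, against 15.7 and 17.2 CPM in gated cells, and MCM4 at 79.5 and 87.4 CPM, against 35.1 and 41.5 CPM. CDC6 was at 7.57 and 7.68 CPM in members, against 2.87 and 2.80 CPM in gated cells. TYMS was at 234 and 201 CPM in members, against 220.4 and 185 CPM in gated cells, and E2F8 was lower in members, at 6.31 and 8.02 CPM, against 13.6 and 16.8 CPM.

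E2F1 rose by 0.96 and RBL1, the pocket protein p107, by 0.76, whereas FBXO5, an inhibitor of the anaphase-promoting complex, fell by 1.03. With the rule applied to thinned counts FBXO5 was 0.48 higher in members, and E2F1 and RBL1 lost their calls with the top 20%. Repair genes were divided: of 37, 11 rose, led by UNG, FANCC (1.21) and MMS22L (1.08, lost with total UMIs alone), and 6 fell, led by PARPBP (-1.39). TK1 (-0.55) and DCK (-0.72), kinases that salvage nucleosides, fell, but TK1 lost its call at matched depth and DCK with the top 5%. CDKN2D, an inhibitor of CDK4 and CDK6, was at 3.69 and 3.21 CPM in members, against 18.2 and 14.3 CPM in gated cells (-2.26), and CDKN2C fell by 0.94. LMNB1 fell by 0.89 on the log2 scale.

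No matrix gene was called between members and gated cells. Of 20, 0 rose and 0 fell, and 0 passed with DESeq2. Before adjustment 11 of the 20 had an edgeR p under 0.05, as had 4568 of all 18007 genes tested. The 20 genes summed to 8106 and 10006 CPM in members. They summed to 7459 and 8963 CPM in gated cells at or above the lowest member score, and to 9000 and 11323 CPM in those below it. DCN was at 565 and 553 CPM in members, against 622 and 584 CPM in gated cells, and ASPN at 10.6 and 18.1 CPM, against 12.6 and 17.8 CPM. Contractile genes were higher than in gated cells where they passed: ACTA2 was at 67.7 and 130.4 CPM in members, against 43.8 and 84.7 CPM in gated cells (0.61) and TAGLN rose by 0.60, while TGFB3 fell by 0.76. ACTA2 and TGFB3 did not pass with total UMIs alone, nor ACTA2 and TAGLN with the top 20%. GREM1, a BMP antagonist, was at 24.4 and 36.8 CPM in members, against 14.5 and 18.6 CPM in gated cells (0.86). None of these passed without the replicate block.

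**Figure D5:**
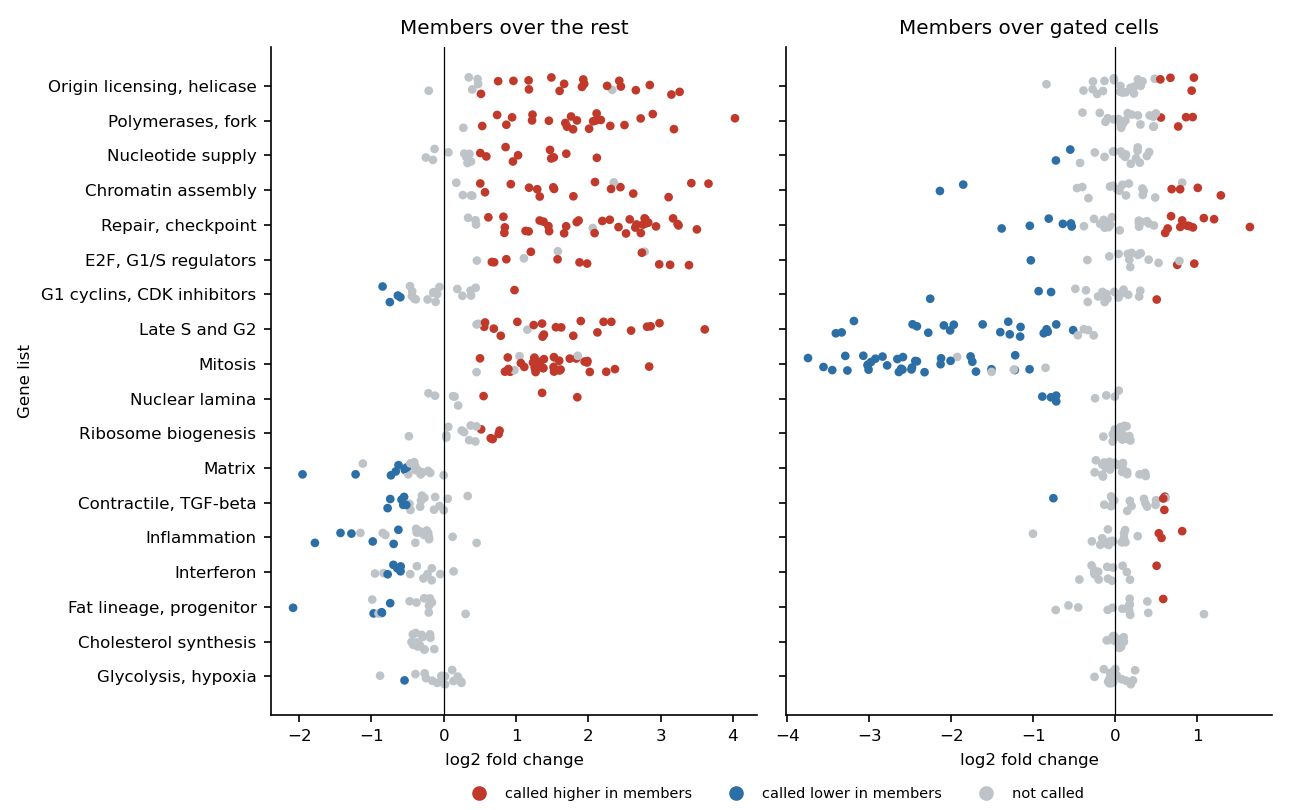
Log2 difference (horizontal axes) of each tested gene of 18 lists, members over the rest at left and members over gated cells at right, with red for genes called higher in members, blue for lower and grey for not called. RSAD2, at 0 UMIs in members, is left out. Replication lists lie right of 0 against the rest and around 0 against gated cells, and mitosis genes turn side, with medians of 1.38 and -2.49.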

How the data were processed

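Polyadenylated RNA of single cells was counted as UMIs. Per the file headers, the deposited count matrices (raw UMI counts per gene and barcode, not normalized) were written by Cell Ranger 7.0.0. The submitters' processing notes name Cell Ranger 7.00 and Sscrofa11.1, and no source used here gives the annotation. Each matrix held 28155 genes, and positions came from RefSeq genes of Sscrofa11.1. The members, gene lists and tests were chosen with earlier results of these data known. No doublet caller was run, and an alternative left out the 8% of cells with most UMIs. Some genes of the lists are counted but not reported here by name.

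Counts were summed per library for members, rest and gated cells, and all 3 groups entered 1 edgeR 4.0.16 quasi-likelihood fit (robust, TMM scaling, filterByExpr, library as block, R 4.3.3). The block joins groups cut from the same library, which is how the samples pair. The score and gate genes were removed before Benjamini-Hochberg adjustment. The spread rests on 2 residual degrees of freedom pooled across genes, so p-values are far smaller than 2 libraries alone could give. Intervals cover counting error only. Detection used counts thinned at random to 5000 UMIs per cell. Named genes were the score and gate genes, the 10 largest and 10 smallest called changes against the rest and 5 and 5 against gated cells with at least 10 CPM in a group, up to 4 called genes per list, any of the 31 S phase genes, and list genes without a call as values. Tested on simulated data for members against the rest (17582 genes), the fit recovered 49 of 50 genes at log2 -1, 50 of 50 at -0.75, 49 of 50 at 0.75 and 50 of 50 at 1, and called 4 of 17370 unchanged genes. Simulated counts had the same spread in every gene, equal changes in both libraries and no choice of cells by a score. The simulation therefore cannot give the rate of false calls in the real comparison. Alternatives varied scaling, filters, the test (DESeq2 1.42.0), the block, thinning, depth, shared barcodes and the membership rule.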

Additional observations from a re-analysis of the deposited data

Results flagged for a closer look

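Barcodes under 5000 UMIs, 2670 in library 1 and 1358 in library 2, entered no comparison, and they carried UMIs of the score genes. Their summed score was 4.56 UMIs per 10000 in library 1 and 4.67 in library 2, against 4.71 and 4.25 in barcodes of at least 5000 UMIs. What these shallow barcodes hold was not tested.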

How the results depend on the processing

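Against the rest, 1067 genes rose and 668 fell. Without the replicate block 246 rose and 36 fell, of which 243 and 36 were among the calls with the block. Falls numbered 397 with total UMIs alone, 406 with DESeq2 and 428 with the top 20% by score. Against gated cells, 407 rose and 389 fell. Without the replicate block 1 rose and 70 fell, and rises numbered 221 with DESeq2 and 218 with each cell thinned. The cause of these differences was not tested, except that a fit without the block counts the difference between libraries as spread.

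In 1 library alone, a value with no test, genes past the fold limit numbered 2512 to 2559 higher and 2518 to 2889 lower against the rest, and 1993 to 2090 higher and 2214 to 2453 lower against gated cells. Directions reversed in 3 cases, all against gated cells. FBXO5 went from -1.03 to 0.48 with the rule on thinned counts. CCL20 went from 0.82 to -0.28 with the top 5%, and CCL5 from 0.56 to -0.17 with the score without TYMS. Of 21 inflammatory genes 3 rose and 0 fell against gated cells, namely CCL20, CCL5 and PTX3 (0.53). PCNA was detected in 83.6% and 76.7% of members without thinning. Of 81 genes named against the rest 35, and of 51 named against gated cells 40, lost the call or reversed under at least 1 alternative. Matched depth, the score without TYMS, shared barcodes and the lower 50% of the pool were alternatives chosen after seeing the data. The rule on thinned counts chose 665 and 810 members, of which 233 and 306 were among the 518 and 640 of the rule used. It left 2931 and 3498 gated cells, against 4406 and 5201 with the rule used. Genes at a few CPM rest on few UMIs, and their values are the least precise.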
